A study of Mus musculus with 80 samples.

Results

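The ERK feedback genes described here are 8 mouse genes, Dusp4, Dusp6, Spry2, Spry4, Spred1, Spred2, Etv4 and Etv5, out of 21883 protein-coding genes. They were chosen by name. A peak was assigned to one of them when it shared at least 1 bp with the gene's annotated bounds extended by 10 kb on either side, which gave 345 of the 710560 peaks used. The peaks come from CUT&Tag, in which an antibody directs a transposase to cut and tag the DNA beside a histone mark. The marks were H3K4me3 (active or poised promoters), H3K27ac (active promoters and enhancers), H3K18la (histone lactylation, found at active regions), H3K27me3 (Polycomb repression) and H3K9me3 (heterochromatin).

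The cells were OG2 mouse embryonic fibroblasts (MEFs) from 129XOG2 embryos of day E13.5, taken through chemical reprogramming. D0 was the starting MEFs, grown in DMEM with 10% fetal bovine serum. D2, D4, D6, D8, D10 and D12 were intermediates after 2, 4, 6, 8, 10 and 12 days in a reprogramming medium whose composition was not given in the labels. The iPSC stage was the resulting pluripotent cells on feeder cells, whose origin the labels leave out. Their medium held LIF at 1000 units/mL, CHIR99021 at 3 µM, PD0325901 at 0.2 µM and the supplements N2 and B27. PD0325901 inhibits MEK, the kinase that activates ERK. The 80 labelled libraries fall into 40 pairs, by 5 marks and 8 stages, and 1 peak list was deposited for each pair. There is therefore no replicate spread and no test below, and a difference between stages is a difference between 2 lists. Each library holds a mixed population, so a shorter peak in all cells and a peak kept in fewer cells cannot be told apart.

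In build mm10, Dusp4 lies at chr8:34807610-34819894, Dusp6 at chr10:99263231-99267489, Spry2 at chr14:105891947-105896819 and Spry4 at chr18:38586247-38601347. Spred1 lies at chr2:117121071-117182279, Spred2 at chr11:19924442-20024026, Etv4 at chr11:101769747-101785310 and Etv5 at chr16:22381313-22439570. With their flanks the windows measured 24259 to 119585 bp, with a median of 35332.5 bp, against a median of 37170 bp over all protein-coding genes. Another protein-coding gene reached into 3 windows. The nearest bound of Arhgap26 lay 270 bp from Spry4, that of Dhx8 2389 bp from Etv4 and that of Tnks 9285 bp from Dusp4. A peak there can belong to either gene.

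Growth factor receptors signal through Ras, Raf and MEK to ERK, and active ERK induces genes that damp the same pathway. Dusp4 and Dusp6 encode phosphatases that remove the activating phosphates from ERK. Spry2 and Spry4 (Sprouty) and Spred1 and Spred2 (Sprouty-related) encode membrane-associated inhibitors that act upstream, at the receptors, Ras and Raf, and Etv4 and Etv5 encode ETS-family transcription factors induced by FGF and ERK signalling. The mRNAs of these genes are widely used as a readout of ERK activity, and in mouse pluripotent cells a MEK inhibitor holds the pathway low. The histone marks measured here show the state of the loci and not their transcription.

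RefSeq promoter sequences (build GRCm38.p6, from 250 bases before to 50 bases after the start) were at hand for 5 of the 8 genes, Dusp6, Spry2, Spred1, Spred2 and Etv5. Etv5 has 2 annotated starts, so there were 6 promoters. That of its second start, at chr16:22438319-22438618, was overlapped by H3K4me3 at 7 stages (not D12) and by no other mark. Promoters of 3 genes are printed because they differ in the marks that overlapped them. H3K27me3 overlapped that of Dusp6 at D10 and D12. H3K27ac overlapped that of Spry2 at D0 and D2 only, and H3K4me3 did so at 7 stages, all but iPSC. These differences rest on peak edges. The D6 H3K27ac peak and the iPSC H3K4me3 peak ended just short of it, at chr14:105896767 and chr14:105896757. The printed promoter of Etv5, that of its first start, was overlapped by H3K27ac and H3K18la at all 8 stages. They are Dusp6 at chr10:99262981-99263280 on the + strand, Spry2 at chr14:105896770-105897069 on the − strand and Etv5 at chr16:22439521-22439820 on the − strand. Each is written 5′ to 3′ along the gene, with capitals for the motifs found.
Dusp6: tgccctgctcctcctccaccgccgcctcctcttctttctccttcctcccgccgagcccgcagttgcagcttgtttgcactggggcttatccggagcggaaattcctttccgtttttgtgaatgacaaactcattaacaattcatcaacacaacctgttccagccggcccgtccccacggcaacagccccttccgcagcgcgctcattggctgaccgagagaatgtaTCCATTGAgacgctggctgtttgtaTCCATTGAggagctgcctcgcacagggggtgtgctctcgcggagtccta
Spry2: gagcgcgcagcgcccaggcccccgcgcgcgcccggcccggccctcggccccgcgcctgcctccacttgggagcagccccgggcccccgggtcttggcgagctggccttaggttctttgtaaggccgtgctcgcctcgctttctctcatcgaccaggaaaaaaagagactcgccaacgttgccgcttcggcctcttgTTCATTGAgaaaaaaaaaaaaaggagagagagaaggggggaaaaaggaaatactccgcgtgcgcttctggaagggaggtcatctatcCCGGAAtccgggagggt
Etv5: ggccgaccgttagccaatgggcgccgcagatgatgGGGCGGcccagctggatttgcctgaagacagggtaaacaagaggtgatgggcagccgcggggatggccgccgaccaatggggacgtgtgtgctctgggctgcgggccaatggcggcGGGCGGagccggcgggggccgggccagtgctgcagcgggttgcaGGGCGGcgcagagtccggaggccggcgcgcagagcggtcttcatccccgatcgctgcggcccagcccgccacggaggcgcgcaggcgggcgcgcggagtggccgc
The capitals in Dusp6 mark TCAATGGA, read on the opposite strand, and those in Spry2 mark TCAATGAA, read on the opposite strand, and CCGGAA. The octamers TGAATGAA, TGAATGGA, TCAATGAA and TCAATGGA are the known binding sequences of Capicua, a repressor that ERK inactivates, and CCGGAA is an ETS core. The capitals in Etv5 mark GGGCGG, the GC box bound by Sp-family factors. On either strand, at least 1 of the 4 octamers was present in 3.84% of 32851 promoters of the same length, and 2 or more matches were present in 0.183%. Dusp6 had 2 matches, which began at positions −24 and 2, counted with the start base as 1, and Spry2 had 1 match at −54. CCGGAA was present in 14.9% of all promoters and here in that of Spry2. GGGCGG was present in 35.66% of all promoters, with 3 matches in the printed Etv5 promoter, 3 in Spred1 and 1 in Spred2. TGACGTCA (1.79% of all promoters), TGANTCA (7.81%) and TATAAA (13.62%) had no match in any of the 6. These motifs were chosen with the sequences in view, do not overlap one another, and describe letters, not bound sites. The 6 promoters had 57.0% to 74.0% GC and 17 to 40 CpG dinucleotides, against medians of 52.7% and 7 over all promoters.

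The 8 genes carried H3K4me3 at or beside their starts at every stage. H3K4me3 covered 17913 bp of the 8 windows at D12, the shortest of the 8 stages, against 27571 bp at D0, and all 8 genes had fewer covered bp at D12 than at D0, as had 55.4% of all genes with a peak at both. H3K27ac covered 26070 bp at D0, then 15032, 11453, 8464, 6825, 11002 and 8074 bp from D2 to D12, and 9962 bp in iPSC. The lowest of these sums was that of D8. Over all genes the mean per window was 1482.8 bp at D0, 614.7 bp at D8, 1172.3 bp at D12 and 516.1 bp in iPSC. The short coverage at D8 was thus shared in part by all genes. H3K27me3 was present in 1 of the 8 windows at D0, 5 at D12 and 1 in iPSC, beside 38.1%, 28.0% and 37.3% of all genes. In iPSC, cultured with the MEK inhibitor, all 8 genes carried both H3K4me3 (75.0% of all genes) and H3K27ac (50.4%). D12 was singled out after the values had been seen.

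Read against all genes, the difference at D12 was larger in the 8 genes for each of these marks. The mean covered length of the 8 genes, as a ratio to the mean over all protein-coding genes, was 2.045 for H3K4me3 at D0, 1.29 at D12 and 1.80 in iPSC. For H3K27ac the ratio was 2.2 at D0, then 1.99, 2.03, 1.42, 1.39, 1.47 and 0.861 from D2 to D12, and 2.41 in iPSC. It was thus already lower at D6, D8 and D10 than at D0. For H3K18la it was 1.32 at D0, 0.647 at D12 and 1.89 in iPSC. The 3 marks of active regions thus had their lowest ratio of the 8 stages at D12. The H3K27me3 ratio was 0.08 at D0, then 0, 0.635, 0.365, 0.426, 0.996 and 2.41 at successive stages from D2 to D12, and 0.336 in iPSC, with its highest value at D12. The H3K4me3 list held 26290 peaks at D12, against 18944 at D0, the H3K27ac list 34185 against 37784, the H3K18la list 8616 against 13832, and the H3K27me3 list 9972 against 19842. Between D0 and D12 the number of peaks in the list thus ran opposite to the coverage of the 8 genes for H3K4me3 and H3K27me3. For H3K27ac and H3K18la both were lower at D12. The cause was not tested.

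**Figure D1:**
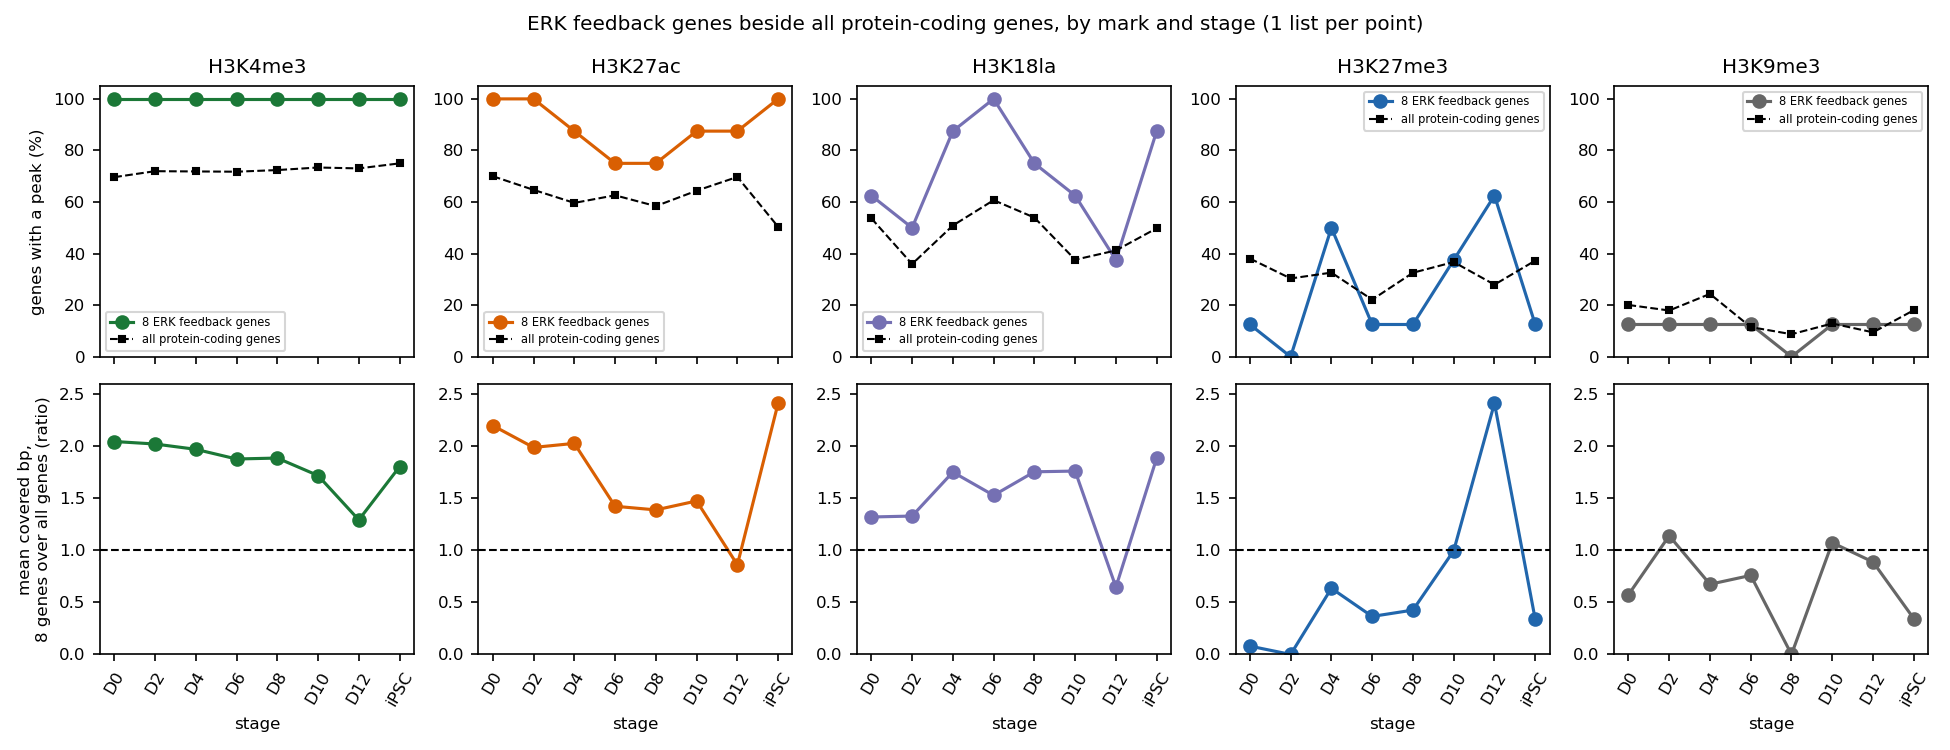
Percent of genes with a peak (top) and mean covered bp of the 8 ERK feedback genes over the mean of all protein-coding genes (bottom, ratio), by mark (columns) and stage (horizontal axis), with 1 list behind each point. In the bottom row the points of H3K4me3, H3K27ac and H3K18la are lowest at D12, at 1.29, 0.861 and 0.647, and that of H3K27me3 is highest there, at 2.41.

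The lists as a whole varied in depth and length. They held 7009 peaks (H3K18la at D2) to 37784 (H3K27ac at D0), and their most common background, solved from the authors' values, was 1.31 to 4.06 fragments per position. The H3K4me3 lists had a most common background of 3.4 fragments at D0, 2.92 at D12 and 1.96 in iPSC, where peaks were more numerous and shorter, 869.1 bp on average against 1361.0 bp at D0. Marker genes were counted beside shares of all genes with H3K27ac of 70.0% at D0, 69.7% at D12 and 50.4% in iPSC. Of 8 fibroblast genes, 8 had H3K27ac at D0, 5 at D12, near the share of all genes, and 1 in iPSC. Of 8 pluripotency genes, 4 had it at D0, 8 at D12 and 7 in iPSC. H3K27me3 was present in 7 of them at D0, 1 at D12 and 2 in iPSC, beside 38.1%, 28.0% and 37.3% of all genes. For so few genes the D12 and iPSC counts were near those shares. Of 6 primitive endoderm genes, 4 had H3K27ac at D0, 6 at D12 and 3 in iPSC, and of 6 epithelial genes 3 at D0, 6 at D12 and 2 in iPSC. The D0 and iPSC counts of the primitive endoderm genes were near the shares of all genes. At D12 every listed pluripotency, primitive endoderm and epithelial gene had a peak, and the part of that in the D12 values of the 8 feedback genes was not tested.

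H3K4me3 was present in the windows of all 8 genes at all 8 stages, as it was in 66.8% of protein-coding genes. Stage by stage, the share of all genes was 69.6% at D0, then 72.0%, 71.9%, 71.8%, 72.4%, 73.4% and 73.0% from D2 to D12, and 75.0% in iPSC. H3K4me3 had 137 peaks in the windows, of which 61 lay over a start. The median ratio of D12 to D0 covered bp was 0.704 in the 8 genes (range 0.243 to 0.964), against 0.966 over all genes. In 3 genes, Spry4, Spred1 and Etv4, coverage at D12 was at least 2-fold shorter than at D0, which 4.67% of all genes with a D0 peak were. From D12 to iPSC the median ratio was 1.63 in the 8 genes (0.354 to 2.52) and 0.944 over all genes. Dusp4 and Spry2 had fewer bp in iPSC than at D12, as did 57.7% of all genes with both, and the other 6 had more. In iPSC, 6 of 8 genes (all but Spred2 and Etv5) had fewer bp than at D0, beside 60.2% of all genes, and Dusp4 and Etv4 were at least 2-fold shorter, beside 8.41%.

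**Figure D2:**
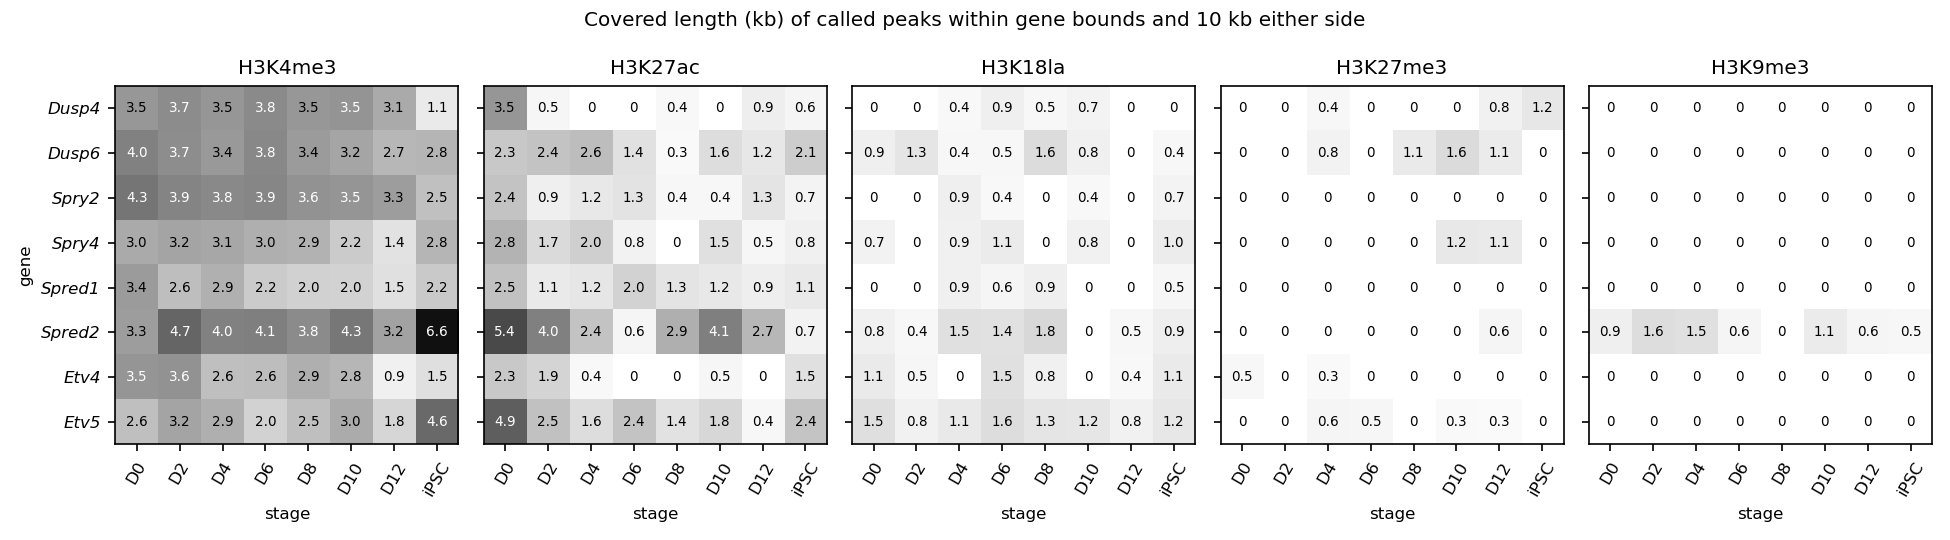
Covered length of called peaks (kb, printed in each cell, darker for longer) for each ERK feedback gene (rows) at each stage (columns) and for each mark (panels), within the gene bounds and 10 kb either side, with 1 list per cell. H3K27me3 stands in 5 rows at D12, and the H3K4me3 cells of Spry4, Spred1 and Etv4 are at their palest at D12.

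Among the phosphatases, Dusp6 had a single H3K4me3 peak of 3999 bp across its start at D0, wider than 99.9% of the peaks in that list. Its H3K4me3 covered 3999 bp at D0, then 3693, 3441, 3842, 3372, 3157 and 2747 bp at successive stages from D2 to D12, and 2814 bp in iPSC. The difference was on one side. The upstream edge of the peak stayed at −1.98 to −2.02 kb from D0 to D12 (−1.89 kb at D6), while the edge inside the gene was at 0.77 kb at D12, against 1.98 kb at D0. In iPSC the peak was split into 2 parts that reached 1.48 kb into the gene.

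Dusp4 kept a wide H3K4me3 peak, 3060 to 3778 bp at each stage from D0 to D12, wider than at least 99.5% of the peaks of its lists. In iPSC 1082 bp were left, from −0.14 to 0.94 kb, wider than 71.3% of that list. By p-value this shorter peak ranked above 87.7% of its list, while the D0 peak ranked above 58.6% of its own. The iPSC to D0 ratio of 0.313 was lower than in all but 1.4% of genes with H3K4me3 at both stages. It was the only one of the 8 genes with at least 2-fold shorter H3K4me3 in iPSC than at D12, beside 9.57% of all genes, and the only one with H3K27me3 in iPSC.

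The Sprouty genes differed from each other. Spry4 had 3038 bp of H3K4me3 at D0, then 3191, 3109, 2953, 2850, 2168 and 1379 bp at successive stages from D2 to D12, and 2799 bp in iPSC. Its D12 peak ran from −0.66 to 0.72 kb, against −1.06 to 1.98 kb at D0, so that it was shorter on both sides. In iPSC the coverage came in 5 short peaks, 3 of them near the start. The outer parts of the peak on the upstream side lie over Arhgap26 as well. Spry2 had its start covered by a 3934 bp peak at D0 that lay as separate pieces at later stages, and its total was 3333 bp at D12, against 4299 bp at D0. In iPSC its 4 pieces covered 2541 bp and none of them overlapped the printed promoter, which H3K4me3 peaks overlapped at the other 7 stages. The nearest piece began 0.06 kb inside the gene, just past that promoter.

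Of the Spred genes, Spred1 had 1488 bp at D12, against 3376 bp at D0. What was missing at D12 was the part inside the gene, where coverage ended at 2.71 kb at D0, 0.17 kb at D12 and 2.16 kb in iPSC. Spred1 recruits neurofibromin to Ras at the membrane. Spred2 had the ratio nearest to 1, with 3323 bp at D0, 3205 bp at D12 and 6611 bp in iPSC, there in 9 peaks. Within 5 kb of its start the coverage was 3205 to 3456 bp at the 8 stages, so the iPSC length came from short peaks inside the gene.

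Both ETS genes were shorter at D12. Etv4 had 3525 bp at D0, then 3599, 2570, 2612, 2928, 2785 and 858 bp at successive stages from D2 to D12, and 1513 bp in iPSC. The D12 to D0 ratio of 0.243 was at the 0.2 percentile of all genes with H3K4me3 at both stages. The peak at its start measured 1942 bp at D0, 858 bp at D12 and 631 bp in iPSC, so its width was not regained there. By p-value that peak ranked above 75.5%, 57.7% and 84.6% of these 3 lists. The Etv5 start peak was 2061 bp at D0, 1843 bp at D12 and 1957 bp in iPSC. Its total in iPSC, 4637 bp, again came from peaks inside the gene.

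**Figure D3:**
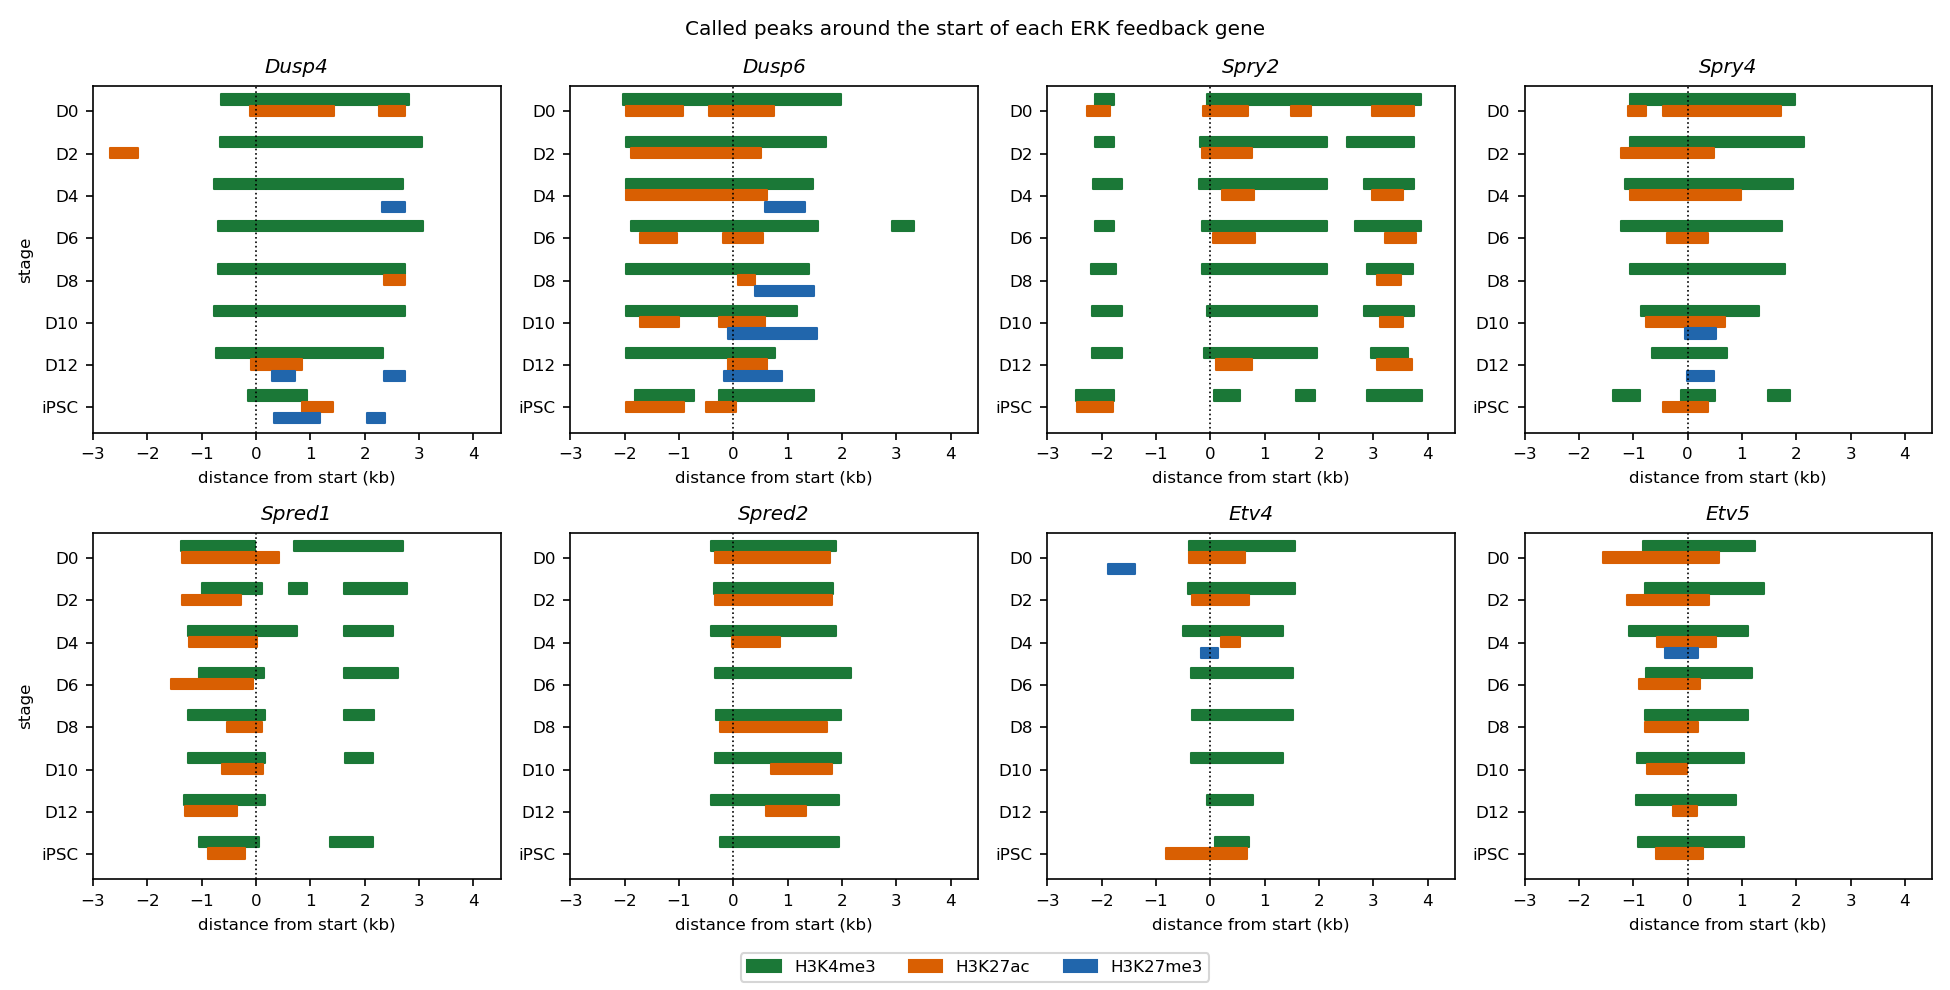
Called peaks of H3K4me3 (green), H3K27ac (orange) and H3K27me3 (blue) around the start of each ERK feedback gene (horizontal axis, kb, positive into the gene), by stage from top to bottom. At Dusp6 the green bar ends at 1.98 kb at D0 and at 0.77 kb at D12, where a blue bar runs from −0.17 to 0.89 kb.

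H3K27ac was present in all 8 windows at D0, D2 and iPSC, in 7 at D4, D10 and D12 and in 6 at D6 and D8. Over all genes the share was 70.0% at D0, then 64.7%, 59.7%, 62.6%, 58.4%, 64.4% and 69.7% from D2 to D12, and 50.4% in iPSC. At all 8 stages it was present in 5 genes, Dusp6, Spry2, Spred1, Spred2 and Etv5, beside 37.0% of all genes. All 8 had H3K27ac at D0 and kept it in iPSC. Of all genes, 70.0% had a D0 peak, and 24.1% had a peak at D0 and none in iPSC. At D12, 7 of 7 genes with a peak at both stages had fewer bp than at D0, beside 64.7% of all such genes, and 5 of 8 (Dusp4, Spry4, Spred1, Etv4 and Etv5) were at least 2-fold shorter or without a peak, beside 27.3%. The median D12 to D0 ratio was 0.385 in these 7 genes (0.088 to 0.543) and 0.834 over all genes. From D12 to iPSC, 3 of 7 genes had fewer bp, beside 84.7% of all genes with both, and the median ratio was 1.20 (0.271 to 5.51), against 0.546 over all genes. Between iPSC and D0 the 8 genes stood nearer to the share of all genes. All 8 had fewer bp in iPSC than at D0, as did 88.1% of all genes, and 6 of 8 were at least 2-fold shorter, as were 70.1%.

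**Figure D4:**
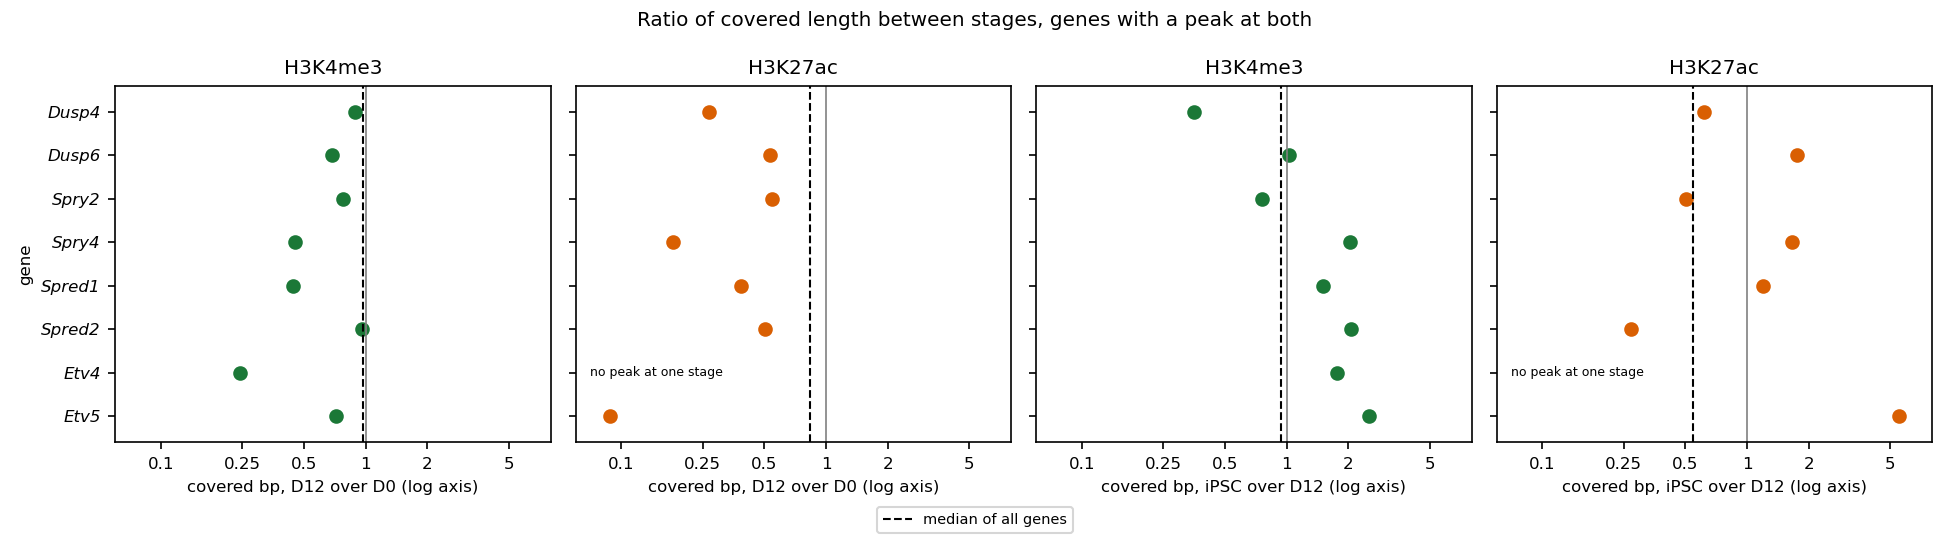
Ratio of covered bp between stages on a log axis for each ERK feedback gene (rows), D12 over D0 in the left pair of panels and iPSC over D12 in the right pair, for H3K4me3 and H3K27ac. The dashed line is the median of all genes with a peak at both stages; all 8 points for H3K4me3 (Spred2 barely) and all 7 for H3K27ac lie left of it at D12 over D0, and 6 of 8 and 5 of 7 lie right of it at iPSC over D12.

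The genes differed in how much H3K27ac they had in iPSC. Dusp6 had 2257 bp at D0, then 2411, 2598, 1429, 322, 1573 and 1198 bp at successive stages from D2 to D12, and 2110 bp in iPSC. Its iPSC to D0 ratio of 0.935 was higher than that of 86.2% of genes with H3K27ac at both. A small Dusp6 peak that began 5.62 kb past the start in iPSC and 5.63 kb past it at D12 was listed at those stages alone. Dusp4 had 3482 bp in 4 peaks at D0 and at most 930 bp at any later stage, with no peak at D4, D6 and D10. In iPSC its 572 bp lay from 0.84 to 1.41 kb, beside and partly under an H3K27me3 peak.

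Spry4 had no H3K27ac peak at its start at D8 and D12. Its H3K27ac covered 2826 bp at D0, then 1707, 2045, 763, 0, 1461 and 506 bp at successive stages from D2 to D12, and 842 bp in iPSC, and the 506 bp of D12 lay inside the gene, 10.81 to 11.31 kb from the start. Spry2 had 662 bp in iPSC, all of it upstream, from −2.45 to −1.79 kb. Its only peaks over the printed promoter were those of D0 and D2, but peaks of D6 and D12 began 0.05 and 0.1 kb inside the gene, close to it. Spred1 kept an H3K27ac peak within 2.5 kb of its start at all 8 stages, with 949 bp at D12, against 2462 bp at D0. Spred2 covered 5412 bp at D0, 2739 bp at D12 and 741 bp in iPSC, where, as at D6, its start had no H3K27ac peak.

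Etv4 had no H3K27ac peak in its window at D6, D8 or D12. It covered 2287 bp at D0, 1902 at D2, 359 at D4, 517 at D10 and 1497 bp in iPSC, where 1 peak ran from −0.81 to 0.68 kb across the start. Etv5 had 435 bp at D12, against 4918 bp at D0, a ratio of 0.088 that was lower than in all but 0.3% of genes, and 2398 bp in iPSC. Its iPSC to D12 ratio of 5.51 was higher than that of 99.9% of genes with both. Etv4 and Etv5, often expressed together in development, both had H3K27ac across their starts in iPSC. Etv5 had it over its printed promoter at the other 7 stages as well.

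H3K27me3 was rare in these windows outside D4, D10 and D12. It was present in 1 gene at D0, then 0, 4, 1, 1, 3 and 5 at successive stages from D2 to D12, and 1 in iPSC, beside 38.1%, 30.4%, 32.6%, 22.1%, 32.6%, 36.7%, 28.0% and 37.3% of all genes. As 1 gene is 12.5% of the 8, the counts at D6 and D10 were near the share of all genes. They were below it at D0, D2, D8 and iPSC and above it at D4 and D12. For so few genes the exact 95% interval of the share was wide and held the share of all genes at every stage. It ran from 0.316% to 52.651% at D0, D8 and iPSC, and from 0% to 36.942% at D2. At D4 it ran from 15.701% to 84.299%, and at D12 from 24.486% to 91.477%. A peak at D12 and none at D0 was found in 5 of 8 (Dusp4, Dusp6, Spry4, Spred2 and Etv5), beside 9.26% of all genes and 10.6% of the genes with H3K4me3 at D0. In 4 of these, all but Dusp4, there was also none in iPSC, beside 5.15% of all genes. At D10 and not at D0 the count was 3, beside 10.7%. Spry2 and Spred1 had no H3K27me3 peak at any stage, as had 38.6% of all genes.

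Dusp6 carried H3K27me3 at 4 stages, always inside or across its start. The peak lay from 0.58 to 1.33 kb at D4, from 0.4 to 1.48 kb at D8, from −0.1 to 1.55 kb at D10 and from −0.17 to 0.89 kb at D12. Its position at D10 and D12 takes in the stretch of the printed promoter with both TCAATGGA matches. At D10 its summit held 65 fragments over a local background of 12.4, with the authors' fold enrichment, a value of the peak within its list, at 4.91 and its p-value ranked above 96.7% of that list. At D12 the summit held 44 fragments over 11.0. The D10 peak had the highest rank within its list of the 20 H3K27me3 peaks in the windows.

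At Spry4, H3K27me3 was listed only at D10 and D12, both at the start and inside the gene. The start peak ran from −0.01 to 0.48 kb at D12, with 46 fragments over 14.9, and from −0.05 to 0.52 kb at D10. Both lay short of the Arhgap26 bounds. The inner peak ran from 10.84 to 11.43 kb at D12 and shared 477 bp with the H3K27ac peak there. In iPSC that inner place held H3K4me3 and H3K18la and no H3K27me3. Dusp4 had H3K27me3 at D4, D12 and in iPSC, where 59 fragments over 18.9 lay at 0.33 to 1.18 kb, and it was the gene with the lowest iPSC to D0 ratio of H3K4me3. The remaining peaks were at Spred2 (D12, −4.64 to −4.08 kb), at Etv5 (its start at D4, −4.4 kb at D6, and from 56.06 kb at D10 and 56.13 kb at D12 inside the gene) and at Etv4 (D0 and D4). By p-value the D4 peaks of Etv4 and Etv5 ranked above only 1.4% and 5.4% of that list.

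H3K27me3 and active marks shared DNA. Of the 20 H3K27me3 peaks, 12 overlapped an H3K4me3 peak and 11 an H3K27ac peak of the same stage, and 7 lay wholly within H3K4me3. Over whole H3K27me3 lists the share that overlapped H3K4me3 was 25.0% to 45.64% at the 8 stages, and the share that overlapped H3K27ac was 12.13% to 24.2%. At D12 the overlap with H3K4me3 was 4 of 7, beside 28.44% of all 9972 H3K27me3 peaks of that list. The overlap with H3K27ac was also 4 of 7, beside 24.2%. The 8 windows all held H3K4me3, while whole lists also take in peaks outside such windows, so these shares are not like for like. Whether both marks sat on the same alleles or in different cells, and whether transposase cutting at open chromatin gave part of the H3K27me3 peaks, including those counted at D12, was not tested.

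H3K18la had 64 peaks in the windows and was present in 5 genes at D0, then 4, 7, 8, 6, 5 and 3 from D2 to D12, and 7 in iPSC. Over all genes the share was 53.7% at D0, then 35.9%, 50.9%, 60.7%, 54.0%, 37.6% and 41.2% from D2 to D12, and 49.8% in iPSC. The lowest and highest counts of the 8 genes thus fell at D12 and D6. The D12 count was near the share of all genes. D6 also had the highest share of all genes and the longest list, with 18455 peaks. The D2 list, whose peak names carry a library number and which may hold 1 library, is the shortest, with 7009 peaks. Etv5 was the only one of the 8 with H3K18la at every stage, beside 17.8% of all genes. A peak lay over its printed promoter each time. Spred2, Etv4 and Etv5 were the 3 genes with H3K18la at both D12 and D0, and all 3 had fewer bp at D12, as did 65.3% of all such genes. Spry2 and Spred1 had H3K18la in iPSC and none at D0, beside 10.6% of all genes. Of the 64 peaks, 56 overlapped H3K4me3 of the same stage (87.5%, against 74.94% of all H3K18la peaks) and 44 overlapped H3K27ac (68.75%, against 68.44%), and 6 overlapped neither.

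Away from the starts, the peaks of all lists merged into 46 places, 11 of them within 2.5 kb of a start and 35 farther out. Of these 35, 24 held H3K27ac in at least 1 list, 18 recurred in 2 or more lists and 17 were seen in 1. Spred2, with the longest window, had 12 of the 35, Etv5 had 9 and Spry2 had none. Spred1, whose window of 81209 bp is longer than the 78258 bp of Etv5, had 3. Counted before merging, H3K27ac peaks wholly more than 2.5 kb away were 13 at D0, then 6, 4, 5, 5, 10 and 8 from D2 to D12, and 7 in iPSC. These include peaks of Spry2 that merged into its start place. The whole H3K27ac lists held 37784 peaks at D0, then 22962, 16671, 22598, 17229, 25729 and 34185, and 20479 in iPSC.

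At Spred2 a place at −4.91 to −3.7 kb was marked in 19 lists, with H3K4me3 at all 8 stages and H3K27ac at all but D8. Its H3K27ac summit held 41 fragments over 7.02 at D12, against 86 over 18.7 at D0, and the H3K27me3 peak of D12 lay within the same place. Another place, 54.29 to 55.8 kb inside the gene, carried H3K27ac at D0, D2, D4, D8 and D10 and not at D12 or in iPSC, and one at 38.5 to 39.18 kb, carried it at D10, D12 and in iPSC only. The end of Spred2 was the only part of the 8 genes with recurring H3K9me3. It lay from 95.54 to 97.14 kb at D2, with 1597 bp, was listed at 6 stages (D0, D2, D4, D6, D10 and D12), and ranked above 82.8% to 93.3% of its list at 5 of these and above 9.0% at D12. Over all genes H3K9me3 was present in 20.1% at D0, then 17.9%, 24.4%, 11.5%, 8.72%, 12.9% and 9.46% from D2 to D12, and 18.1% in iPSC. In iPSC that place had no H3K9me3 peak and held an H3K4me3 peak from 96.12 to 97.13 kb, with 40 fragments over 5.61, and the 1 H3K9me3 peak of iPSC lay upstream of Spred2, at −9.66 to −9.2 kb. The other 7 genes had no H3K9me3 peak at any stage, beside 62.3% of all genes.

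At Etv5 a place at 9.86 to 11.36 kb inside the gene was marked in 15 lists and at D12 in none. It carried H3K27ac at D0, D2, D6, D8, D10 and in iPSC, with 38 fragments over 8.89 in iPSC, against 45 over 8.75 at D0. A place at 48.9 to 50.57 kb carried H3K27ac from D0 to D6 and no mark after D6, with 51 fragments over 8.83 at D0. One at 56.06 to 56.7 kb, carried H3K27ac and H3K27me3 at D10, H3K27me3 alone at D12 and H3K18la alone in iPSC. Etv4 had a place at −6.28 to −5.02 kb with H3K27ac at D0 and D2 and no mark after D8, and one at 12.04 to 13.16 kb with H3K4me3 at 6 stages, absent at D6 and D12. Spred1 had H3K27ac at 21.56 to 22.25 kb at D0, D8 and D10, and in iPSC H3K27ac and H3K4me3 at 55.74 to 56.41 kb.

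The genes whose covered length over the 40 lists ran most like that of each gene were found by Spearman's rho among 17964 or 17965 other genes with a peak in at least 5 lists. They were Cnnm4 for Dusp4 (rho 0.893), Tfap4 for Dusp6 (0.936), Mccc1 for Spry2 (0.978) and Fbf1 for Spry4 (0.925). For Spred1 it was Cenpw (0.981), for Spred2 Dpm1 (0.925), for Etv4 Tpst2 (0.887) and for Etv5 Reep3 (0.956). No member had another member among its 3 nearest. The closest were Spry2 and Spred1 (0.946), the only pair with no H3K27me3, and then Etv5 with Spred1 (0.891). The 40 points share marks and lists, and so depth, and are not independent.

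Other genes of the pathway were counted in the same way, beside 55.4% of all genes for fewer H3K4me3 bp at D12 and 9.26% for H3K27me3 at D12 and none at D0. Of 15 other feedback genes, 10 of the 14 with H3K4me3 at both stages had fewer bp at D12 than at D0 (median ratio 0.858) and 0 had H3K27me3 at D12 and none at D0. Of 29 receptor and cascade genes, 14 of 29 had fewer H3K4me3 bp at D12 (median ratio 1.04), and 5 had H3K27me3 at D12 and not at D0. Of 15 ERK target genes, 14 had fewer H3K4me3 bp at D12 (median ratio 0.782), and 4 had such an H3K27me3 peak, namely Egr1, Fosl1, Srf and Emp1. The counts of the receptor and cascade genes for H3K4me3 and of the other feedback genes for H3K27me3 were near the shares of all genes, and differences between the lists were not tested.

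For H3K27ac, a peak at D0 and none in iPSC was found in 4 of 15 other feedback genes, 8 of 29 receptor and cascade genes and 5 of 15 targets, beside 0 of the 8 and 24.1% of all genes, so that the 3 lists were near the share of all genes. The 2 of each list with the longest coverage at D0 were the phosphatase genes Dusp7 (3361 bp) and Dusp16 (2394 bp), the receptor gene Fgfr2 (4707 bp) and the scaffold gene Ksr1 (4212 bp), and, of the targets, Plaur (3712 bp) and the AP-1 gene Fosl1 (3437 bp). H3K27me3 in iPSC and none at D0 was found in 4, 5 and 4 genes of the 3 lists, beside 1 of the 8 (Dusp4) and 11.0% of all genes. Among them were Errfi1 (793 bp), an inhibitor of the EGF receptor, the Ras activator Sos2 (1043 bp) and the immediate early genes Egr1 (1313 bp) and Fos (982 bp).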

How the data were processed

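The labels name 80 CUT&Tag libraries, and 40 narrowPeak lists, 1 per mark and stage, were deposited. The submitters' processing notes name build mm10, MACS2 2.1.2, Bowtie2 2.2.5, deepTools 3.4.3 and fastp 0.20.1. Pooling of libraries before calling, and any control library, are not described in the labels. Each deposited peak carries the authors' fold enrichment, the ratio of its summit pileup to the background around it, and the authors' −log10 p-value. Both rank or filter peaks inside 1 list. The deposited q-values were not used.

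Of 713652 peaks, 3092 outside chromosomes 1 to 19, X and Y were left out. Genes were the 21883 protein-coding genes of RefSeq GRCm38.p6, whose coordinates are those of mm10. Covered bp is the merged length of a list's peaks within a window. The lists hold no read totals. Summit pileup and background were therefore solved from the fold and −log10 p-value of each peak by a Poisson tail, with a pseudocount of 1 and a tolerance of 0.01, in at least 96.4% of 1000 peaks per list and in every peak named. The start is the annotated one or, for Dusp4, Spry4 and Etv4, the gene end under the D0 H3K4me3 peak. Overlap counting was tested on simulated peaks.

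The members, gene lists and motifs were chosen with earlier results of these data known. Besides members, genes were named by the longest coverage among those marked only at D0 or only in iPSC, and as the 3 with the highest rho. The H3K27me3 genes named for D12 were named after their values were seen. Alternatives were the flank, the p threshold, list length and overlap. Python 3.11.15, numpy 2.4.6, pandas 2.3.3, scipy 1.17.1 and matplotlib 3.10.9 were used.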

Additional observations from a re-analysis of the deposited data

How the results depend on the processing

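No paired analysis was possible because each mark and stage has 1 peak list and no test was run. Of 168 values for the 8 genes together and the pathway lists, 125 kept their direction and stayed within 1.5 times, 41 moved further and 2 changed sign. Requiring that most of a peak lie in the window moved none of them beyond 1.5 times. The causes were not tested. Within 2.5 kb of the start meant both gene ends where no annotated start was at hand, as for Dusp4, Spry4 and Etv4. A gene without a peak may carry a mark below the calling threshold.

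The iPSC less D0 difference in H3K4me3 of the 8 windows, −3335 bp, was −1319 with no flank, −1389 with 25 kb flanks, −8910 within 2.5 kb of the start, −6405 at a −log10 p of at least 10 and −14405 with lists of equal length. For H3K27ac it was −8587 within 2.5 kb of the start, against −16108 as reported. For H3K18la (851 bp) it was 1620 with 25 kb flanks, −999 within 2.5 kb and 1524 with equal lists. For H3K27me3 (686 bp) it was 1178 with no flank, −868 with 25 kb flanks and 352 at −log10 p of 10. For H3K9me3 (−452 bp) it was −908 with no flank, at −log10 p of 10 and with equal lists, and 0 within 2.5 kb.

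Genes of the 8 with H3K27ac in iPSC were 6 at −log10 p of 10 and 7 with no flank, within 2.5 kb or with equal lists (8 as reported). With H3K18la at D0 they were 3 with equal lists (5). With H3K27me3 they were 0 at D0 with no flank or equal lists and 2 at D0 and in iPSC with 25 kb flanks (1 each). With H3K9me3 they were 0 within 2.5 kb at both stages, and 0 in iPSC with no flank, at −log10 p of 10 and with equal lists (1 each). Those with H3K27me3 at D12 and none at D0 were 3 within 2.5 kb of the start, beside 4.06% of all genes, and 4 or 5 under the other 5 settings. Fewer H3K4me3 bp at D12 than at D0 held in 6 to 8 genes, beside 50.3% to 67.7% of all genes (6 beside 50.3% with 25 kb flanks, 7 beside 67.7% within 2.5 kb), and an at least 2-fold shorter H3K27ac at D12 in 5 to 7, beside 24.8% to 31.3%. These D12 counts were chosen after seeing the data.

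Of the 59 pathway genes, H3K27ac in iPSC marked 24 with no flank and 26 within 2.5 kb (40 as reported). H3K18la at D0 marked 29 within 2.5 kb and 28 with equal lists (44). H3K27me3 at D0 marked 8 with no flank or within 2.5 kb and 11 with equal lists (19), and in iPSC 14 within 2.5 kb or with equal lists and 15 at −log10 p of 10 (23). H3K9me3 marked 3, 11 and 0 at D0 with no flank, 25 kb flanks and within 2.5 kb (6), and 1 in iPSC with no flank, within 2.5 kb and with equal lists (3).

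Single genes changed sign in iPSC less D0 bp as follows. For H3K4me3, Spry4 was 594 with 25 kb flanks. Spred2 was −106 and Etv5 −104 within 2.5 kb, and −110 and −122 with equal lists. For H3K27ac, Spry2 was 225 with equal lists, and Etv4 was 40 with no flank and 453 within 2.5 kb or with equal lists. For H3K18la, Dusp6 was 425 with no flank or equal lists, and Spry4 was −50 with no flank and −358 within 2.5 kb. Spred2 was −392 with no flank or within 2.5 kb and −305 at −log10 p of 10 or with equal lists. Etv4 was 66 with no flank, 188 within 2.5 kb (in part from the gene end far from its start) and 89 at −log10 p of 10 or with equal lists. Etv5 was 410 with no flank, 81 with 25 kb flanks and 106 at −log10 p of 10 or with equal lists.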
